A study of Glycine max with 48 samples.

Results

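The genes described here are 63 soybean genes whose average level in sepal, ovary and stigma was higher under restricted watering, both at normal and at high temperature. They were chosen from their own measured values. A gene had to reach a mean of 5 FPKM (fragments per kilobase of transcript relative to all fragments mapped in a library) in some group of these 3 organs. Its log2 ratio of group means, after adding 1 FPKM to each, then had to average 0.6 or more over the 3 organs for water deficit over control and again for combined stress over heat. Of 57147 identifiers listed, 55897 were GLYMA_ genes, 25955 of these reached 5 FPKM, and 63 met both averages. The anther had no part in the choice.

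The 48 libraries came from flowers of Glycine max cultivar Magellan, inoculated with Bradyrhizobium japonicum and grown for 16 to 18 days until first flowering. Combined stress meant 30% of the water available for transpiration with days of 38 °C and nights of 28 °C. Water deficit meant 30% of that water with days of 28 °C and nights of 24 °C. Heat meant 100% of the water with days of 38 °C and nights of 28 °C, and control plants had 100% with days of 28 °C and nights of 24 °C. Sepal, ovary, stigma and anther were each sampled in 3 libraries per treatment, which makes 16 groups. Each library pooled organs of 10 to 15 flowers from 8 to 10 plants. The treatments were given in 4 growth chambers. The labels do not give the chamber of a library, and treatment and chamber cannot be told apart.

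In plants, a fall in water supply raises abscisic acid, the hormone that closes stomata. Its receptors inhibit protein phosphatases, which frees protein kinases that activate transcription factors, and their targets include dehydrins, late embryogenesis abundant proteins and enzymes that make protective sugars. Heat acts largely through heat shock transcription factors, which switch on chaperones that hold proteins folded, and some chaperone genes answer to drought as well. The identifiers could not be paired with gene names: 0 of 57147 matched the reference gene table. No member can therefore be placed in these pathways, and the members are described by level and behaviour only.

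Files of FPKM values give no read totals, so the depth of a library is unknown. The most frequent ratio between low values of the same genes in a pair of libraries put the deepest library of an organ at most 1.30 times above the shallowest in sepal, 1.53 times in ovary, 1.45 times in stigma and 1.61 times in anther. Genes at 1 FPKM or more numbered 29771 to 31827 in sepal libraries, 30513 to 31295 in ovary, 30514 to 31587 in stigma and 21198 to 28209 in anther. Genes with a mean of 5 FPKM in an organ and 8 times the level of each other organ served as organ markers. The 1757 anther-enriched genes took at most 2.29% of the summed FPKM of a sepal library, reached in control replicate 3, and at most 4.61% of a stigma library, reached in control replicate 1. Leaving out sepal control replicate 3 changed the number of members to 69, of which 61 were among the 63, and leaving out stigma control replicate 1 changed it to 64, with 62 shared.

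The average for water deficit over control ran from 0.60 to 2.82 among the members, with a median of 0.99, and the average for combined stress over heat ran from 0.60 to 4.0, with a median of 1.07. The medians over all 25955 eligible genes were -0.01 and -0.03. These values chose the members and are given as a description. Just inside the threshold lay GLYMA_17G101400, with averages of 0.76 and 0.60, and GLYMA_01G132500, with 0.60 and 0.83. Just outside lay GLYMA_03G190100, with 0.59 and 1.49, and GLYMA_11G097500, with 0.58 and 0.65. The average hid large differences between organs. Only 30 of the 63 members were above 0 in all 6 comparisons (3 organs, each at 2 temperatures), and 4 members reached 0.6 in every one of them: GLYMA_04G014000, GLYMA_17G072400, GLYMA_14G100000 and GLYMA_16G206200. The libraries of GLYMA_04G014000 did not overlap in any of the 6, and those of the other 3 genes overlapped in all 6. GLYMA_16G206200 was also near the floor at normal temperature, with organ means of 0.86 to 1.48 FPKM under water deficit and 0.03 to 0.37 in control.

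The members fell into sets that differed in how often they were listed at 0. Of the 63 members, 36 (57.1%) were listed at exactly 0 in more than 3 of the 36 sepal, ovary and stigma libraries, against 1208 (4.65%) of the 25955 eligible genes. These 36 are called intermittent below, and the other 27 are called steady. The names refer to the zeros only, and some steady members had replicates as uneven as those of some intermittent members. This split was chosen after the values were seen, and no test was made on it. The intermittent members were listed at 0 in 8 to 34 of the 36 libraries, with a median of 27, and 8 of them were at 0 in 34. In the low-water groups, leaving out those at 0 throughout, the top library supplied a median of 100% of the sum of the 3 libraries in intermittent members. In steady members it supplied 41.6%. Each figure is the median over members of a member's own median over its groups.

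**Figure D1:**
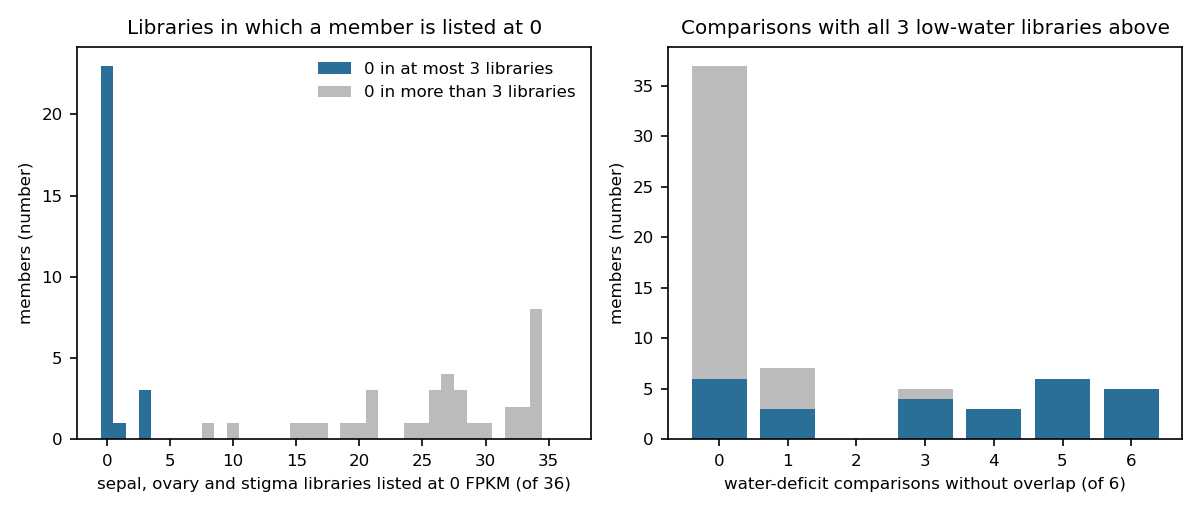
Number of sepal, ovary and stigma libraries (of 36) in which a member is listed at 0 FPKM (left), and number of the 6 water-deficit comparisons in which all 3 low-water libraries lie above all 3 well-watered ones (right), for 27 steady members in blue and 36 intermittent members in grey. Bars count members: the steady ones gather at the left of the first panel and hold all 14 members with 4 or more separated comparisons.

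The 8 members with the largest smaller average were all intermittent. GLYMA_15G056700 had 123, 0 and 0 FPKM in sepals under water deficit, against 26.7, 1.53e-05 and 0 in control sepals. In ovaries it had 0, 0 and 86.9 FPKM under water deficit, where all 3 control ovaries were at 0, and 0, 0 and 58.6 FPKM under combined stress, against 0 in the 3 heat libraries. In stigmas it had 124, 0 and 115 FPKM under combined stress, against 0 in the 3 heat libraries. In none of these comparisons did the 3 low-water libraries all lie above the others, and the highest values stood beside replicates of the same group listed at 0.

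GLYMA_05G129500 had 78.4, 465 and 0 FPKM in stigmas under water deficit, against 0, 0 and 5.04e-06 in control stigmas. In ovaries the same gene had 0, 72.9 and 116 FPKM under water deficit and 82.0, 124 and 0 in control, so that the groups overlapped. GLYMA_06G094800 had 85.9, 4.82e-05 and 7.11e-07 FPKM in ovaries under water deficit, against 0, 0 and 2.71e-06 in control ovaries. Here too 1 library carried the group mean.

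GLYMA_13G370600 had 19.6, 0 and 14.7 FPKM in ovaries under water deficit, against 0, 37.5 and 13.0 in control, and was above 0 in 2 stigma libraries under combined stress and in none under heat. GLYMA_02G282300 was more often present: 226, 398 and 118 FPKM in ovaries under combined stress, against 0, 238 and 226 under heat, and 208, 421 and 427 FPKM in stigmas under combined stress, against 0 in all 3 heat libraries. The stigma groups did not overlap and the ovary groups did.

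GLYMA_05G175700, GLYMA_06G119600 and GLYMA_17G122900, the other leading members, had the same alternation. GLYMA_05G175700 had 128, 20.2 and 279 FPKM in ovaries under combined stress, against 0, 17.6 and 59.6 under heat. GLYMA_06G119600 had 45.9, 40.0 and 45.4 FPKM in sepals under water deficit and 60.8, 43.4 and 0 in control sepals, and was listed at 0 in all 6 sepal libraries at high temperature. GLYMA_17G122900 had 20.5, 133 and 0 FPKM in ovaries under combined stress, against 0 in all 3 heat libraries, and 43.6, 0 and 0 FPKM in stigmas under water deficit, against 0, 123 and 0 in control stigmas. Among all 36 intermittent members, 31 separated the libraries in none of the 6 comparisons. The share of all genes separated in each comparison is given below.

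GLYMA_06G218400, one of the pair with the largest smaller value of the 2 sepal comparisons, was above 0 in only 1 sepal library of each low-water group, at 22.4 FPKM in water deficit and 24.8 FPKM in combined stress, and none of the control or heat libraries of sepal was above 0. The members with the widest gap between the averages were intermittent as well, with 1 exception. GLYMA_06G160700 and GLYMA_02G102200 had the larger value without heat: the first had 0, 25.1 and 52.9 FPKM in stigmas under water deficit, against 0 in all 3 control libraries. The exception, GLYMA_05G011200, had the larger value at high temperature and was measured in nearly every library. It had 29.5, 77.6 and 21.5 FPKM in sepals under combined stress, against 5.67, 1.17 and 3.60 under heat, and 72.8, 185 and 113 FPKM in stigmas under combined stress, against 16.8, 12.7 and 11.9 under heat. In sepals at normal temperature its values overlapped, with 1.88, 0.437 and 0.466 FPKM under water deficit and 2.60, 1.09 and 3.51 in control.

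Among the 27 steady members, 25 were above 0 in all 6 comparisons. The others were GLYMA_05G011200, whose sepal value for water deficit over control was -0.82, and GLYMA_07G177800, whose ovary value was -0.12. In sepals, 13 of 54 members with a mean of at least 1 FPKM in some group had all 3 water-deficit libraries above all 3 control libraries, where 6.32% of all genes did, and 16 of 54 had all 3 combined-stress libraries above the heat libraries, where 8.16% did. In ovaries the counts were 15 of 61 (6.49% of all genes) and 13 of 61 (7.72%), and in stigmas 17 of 59 (7.67%) and 19 of 59 (8.71%). The rule used these contrasts, so the counts describe the choice and carry no further weight. In the other direction 0 members were separated in any of the 6, where water deficit separated 10.4% of all genes in sepals, 7.59% in ovaries and 5.21% in stigmas, and combined stress separated 15.1%, 10.6% and 12% in the same organs.

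The most abundant member was GLYMA_01G132500, which had the highest FPKM of all genes in each of the 12 sepal libraries. It had 15768, 16051 and 15304 FPKM in sepals under water deficit, against 11479, 9756 and 9517 in control sepals, and 18638, 16917 and 18670 FPKM under combined stress, against 8877, 11297 and 10652 under heat. The low-water libraries lay above the well-watered ones without overlap at both temperatures. Its share of the summed FPKM of sepal was 2.51% ± 0.113 under water deficit and 1.67% ± 0.168 in control, and 3.00% ± 0.204 under combined stress and 1.70% ± 0.222 under heat (SD, n = 3 each).

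In stigmas GLYMA_01G132500 had 4246, 3421 and 4269 FPKM under water deficit, against 2648, 2798 and 2315 in control, and 4292, 4225 and 4400 FPKM under combined stress, against 2026, 1987 and 2487 under heat. Ovaries held less, with a mean of 1656 ± 163 FPKM under water deficit and 1118 ± 235 in control, and 1602 ± 319 under combined stress and 999.4 ± 174 under heat (SD, n = 3 each). Its order of organs, sepal over stigma over ovary, was the same in all 4 treatments, and no library of these 3 organs crossed it.

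GLYMA_09G238300 had the second highest mean level. In stigmas it had 4572, 3708 and 4251 FPKM under combined stress, against 2026, 1676 and 2292 under heat, and 1365, 1009 and 1327 FPKM under water deficit, against 752, 827 and 719 in control. Neither pair of groups overlapped. In ovaries it averaged 648 ± 72.8 FPKM under water deficit and 314 ± 43.5 in control, and 1522 ± 428 under combined stress and 947 ± 241 under heat, with 1169 FPKM in the lowest combined-stress library and 1175 in the highest heat library (SD, n = 3 each).

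The low-water libraries lay above the others in 6 of 6 comparisons for 5 members: GLYMA_04G014000, GLYMA_16G096500, GLYMA_06G021200, GLYMA_07G132600 and GLYMA_01G132500. They were singled out after their values were seen. The rule used these comparisons, so the count describes the choice, and it was not made over all genes. GLYMA_04G014000 had 8.13, 11.0 and 11.5 FPKM in ovaries under water deficit, against 2.24, 2.61 and 2.32 in control, and 22.5, 18.6 and 15.9 FPKM under combined stress, against 3.12, 4.12 and 4.28 under heat. In sepals, where its level was highest, it averaged 121 ± 16.8 FPKM under water deficit and 60.0 ± 7.28 in control, and 137 ± 3.98 under combined stress and 74.8 ± 10.3 under heat (SD, n = 3 each). It belongs to the 691 sepal-enriched genes. In anthers its mean stayed below 1 FPKM in every group.

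GLYMA_16G096500 averaged 36.02 ± 2.90 FPKM in sepals under water deficit and 25.1 ± 1.2 in control, and 28.7 ± 4.53 FPKM in stigmas under combined stress and 14.3 ± 2.27 under heat (SD, n = 3 each). GLYMA_07G132600 had 106, 92.1 and 115 FPKM in stigmas under water deficit, against 64.2, 63.0 and 48.5 in control, and 180, 177 and 175 FPKM under combined stress, against 77.0, 77.4 and 91.2 under heat. GLYMA_06G021200 had 121, 134 and 129 FPKM in sepals under water deficit, against 104, 82.5 and 77.5 in control, and 98.1, 90.8 and 89.4 FPKM under combined stress, against 58.0, 61.6 and 66.2 under heat. In that organ its combined-stress libraries lay below its water-deficit libraries, unlike those of the other 4 genes.

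**Figure D2:**
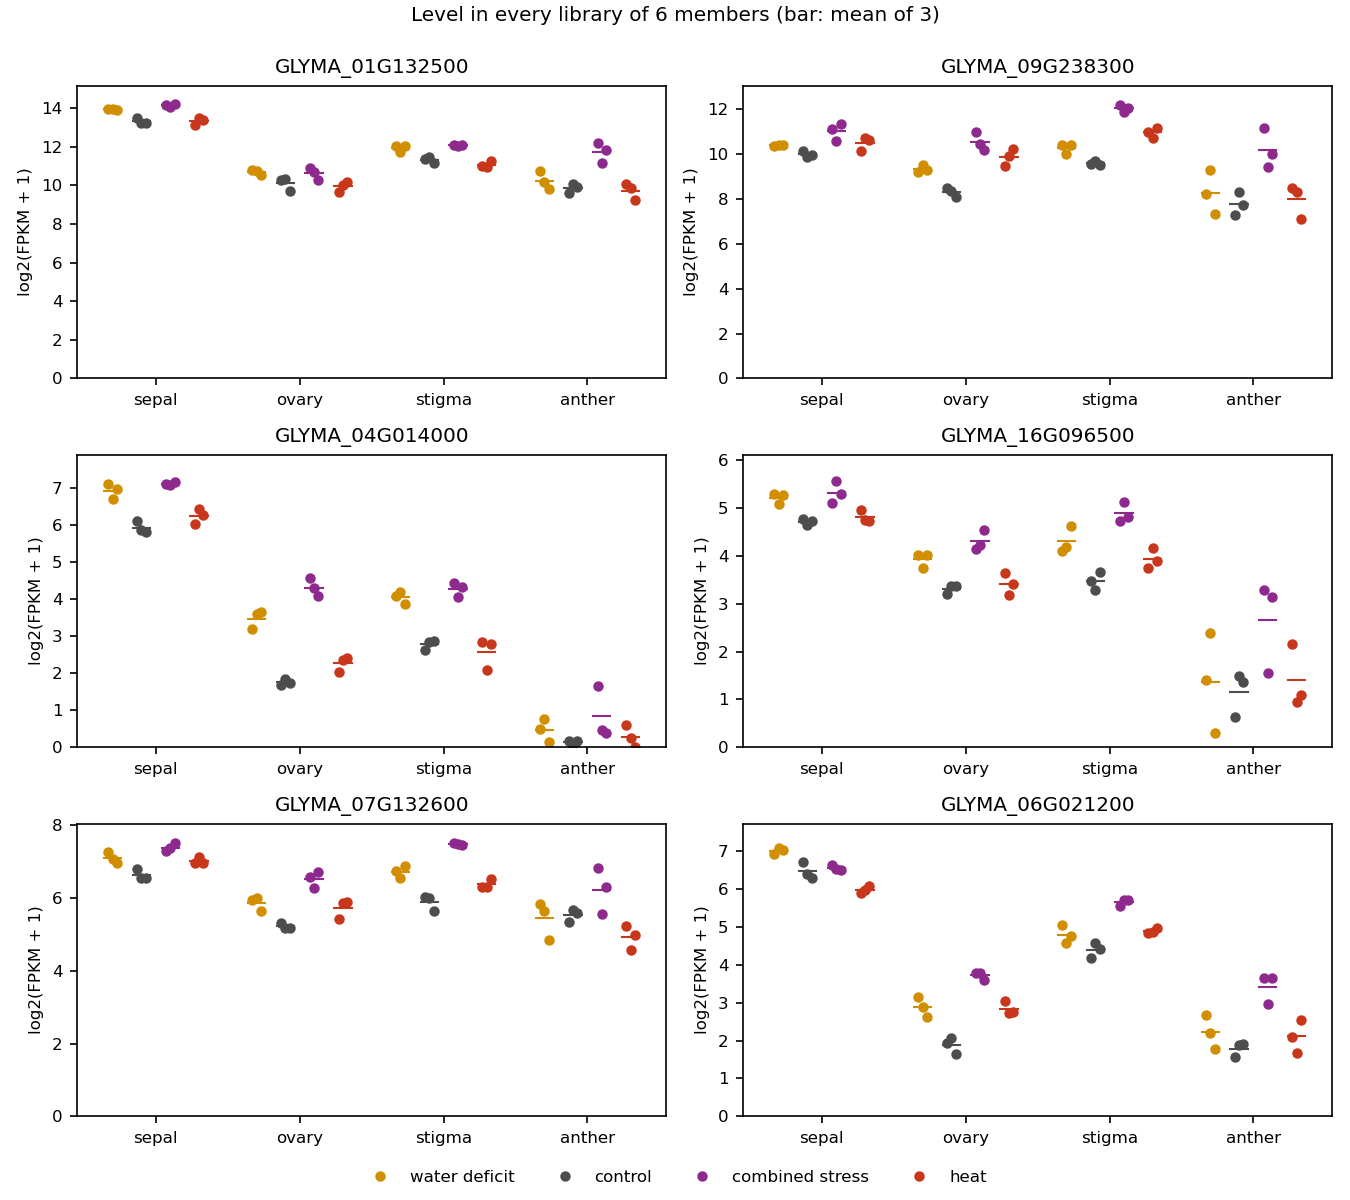
Level of 6 steady members in all 48 libraries as log2(FPKM + 1), by organ and treatment, with a point per library and a bar at the mean of 3. In sepal, ovary and stigma the water deficit points lie above the control points in all 6 genes and the combined stress points above the heat points in 5, the exceptions being GLYMA_09G238300 in sepal and ovary.

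Among the 27 steady members, the group mean was highest under combined stress in 24 in sepals, 23 in ovaries, 25 in stigmas and 26 in anthers. In sepals, ovaries and stigmas the rule itself favoured the low-water groups, so those counts partly describe the choice. In anthers most genes moved the same way. Of all genes tested there, 74.2% had a log2 fold change above 0 for combined stress over heat. For combined stress over water deficit the share was 79.1%. In control flowers, 14 of the 27 had their highest mean in sepals, 5 in ovaries, 3 in stigmas and 5 in anthers. The 63 members lay on all 20 chromosomes named in their identifiers, with 8 on chromosome 6. One pair of members had neighbouring identifier numbers, GLYMA_13G176000 and GLYMA_13G176200, which differ by 200.

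Of the 27 steady members, 7 rose in all 4 organs with heat against control, as tested further down, and are called heat-raised: GLYMA_17G072400, GLYMA_14G100000, GLYMA_13G176000, GLYMA_07G200700, GLYMA_16G206200, GLYMA_19G011400 and GLYMA_13G176200. Their water-deficit differences were uneven between replicates. In stigmas GLYMA_13G176200 had 32.5, 13.4 and 32.5 FPKM under water deficit, against 11.4, 14.6 and 19.8 in control, and 662, 2177 and 909 FPKM under combined stress, against 360, 822 and 431 under heat. Both pairs of groups overlapped, and replicate 2 was the lowest water-deficit library and the highest combined-stress library. GLYMA_17G072400 had 251, 879 and 244 FPKM in sepals under combined stress, against 476, 204 and 175 under heat, which overlap in the same way.

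In the groups named next, the same library was highest or lowest for all 7 genes. In other groups the genes agreed less: in anthers, at most 4 of 7 shared a highest heat library or a lowest water-deficit library. Under combined stress all 7 were highest in sepal replicate 2, ovary replicate 3, stigma replicate 2 and anther replicate 3. Under heat all 7 were highest in sepal replicate 1, ovary replicate 1 and stigma replicate 2, and under water deficit all 7 were lowest in sepal replicate 2, ovary replicate 1 and stigma replicate 2. Other genes at least 8 times higher under heat than in control had their highest combined-stress value in those libraries in 45.2% of cases in sepal, 39.4% in ovary, 50.0% in stigma and 34.6% in anther. Their highest heat value lay in the named libraries in 53.2% of cases in sepal, 50.5% in ovary and 57.9% in stigma. Their lowest water-deficit value lay in the named libraries in 39.5%, 80.7% and 39.7% of cases in sepal, ovary and stigma.

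**Figure D3:**
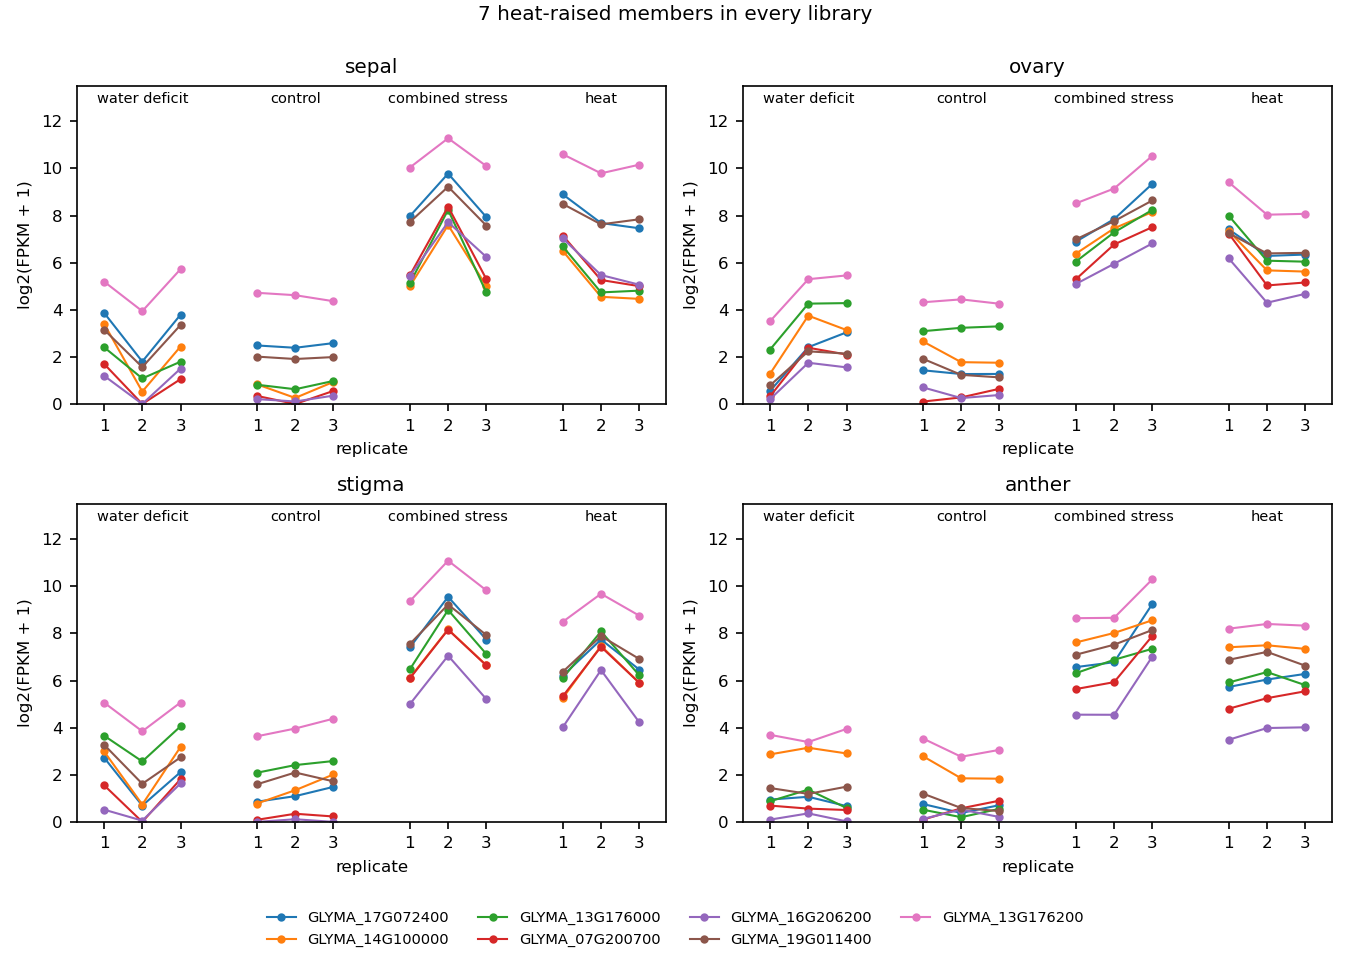
Level of the 7 heat-raised members in every library as log2(FPKM + 1), by organ, treatment and replicate, with lines joining the values of a gene within a group. The lines run nearly parallel, so that all 7 genes peak in the same library of each combined-stress group.

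Of the 6 comparisons the rule used, the 7 heat-raised members separated the libraries in at most 1, and 6 of the 7 in none. The other 20 steady members separated them in 1 to 6, with a median of 5, and 18 of the 20 did so in at least 3. These numbers describe the choice and were not counted over all genes. With group medians in place of means, the combined-stress over heat value of GLYMA_19G011400 in sepals was -0.12, against 0.35 with means, and that of GLYMA_13G176200 was -0.06, against 0.37.

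The choice of members depended on the replicates. When the rule was applied without replicate 1 of every group it gave 84 members, of which 41 were among the 63. Without replicate 2 it gave 63, with 40 shared, and without replicate 3 it gave 63, with 39 shared. With group medians it gave 66, with 35 shared, but 26 of the 27 steady members were among these. Leaving out replicate 2 removed 9 steady members, 6 of them from the heat-raised set. The 12 members that met the rule under each of these alternatives and under a rescaling of the libraries were GLYMA_04G014000, GLYMA_07G229000, GLYMA_17G072400, GLYMA_13G050100, GLYMA_14G162100, GLYMA_17G127900, GLYMA_20G237300, GLYMA_12G149100, GLYMA_01G178500, GLYMA_20G151500, GLYMA_16G096500 and GLYMA_07G132600. All but GLYMA_13G050100 were steady. GLYMA_17G072400, of the heat-raised set, separated the libraries in 0 of the 6 comparisons.

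GLYMA_07G229000, among those 12, had 45.5, 44.9 and 45.6 FPKM in ovaries under water deficit, against 18.8, 20.0 and 20.1 in control, and 57.6, 33.7 and 55.3 FPKM under combined stress, against 17.7, 21.3 and 21.9 under heat. GLYMA_17G127900 had 2.50, 2.37 and 2.44 FPKM in stigmas under water deficit, against 0.588, 0.463 and 0.447 in control, without overlap. GLYMA_20G237300, at a similarly low level, had 4.97, 7.49 and 6.45 FPKM in ovaries under water deficit, against 1.79, 1.06 and 0.211 in control. These genes were picked after their values were seen. The libraries were separated in 5 of the 6 comparisons for GLYMA_07G229000 and for GLYMA_17G127900, and in 3 for GLYMA_20G237300. In ovaries the combined-stress libraries of GLYMA_20G237300, at 2.73 to 7.05 FPKM, overlapped its heat libraries, at 1.35 to 5.33. These values are a description, since the rule read the same libraries.

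The anther shows how the members behaved in an organ that the rule did not read. It was tested with limma on log2(FPKM + 1) over 28529 genes with a mean of 1 FPKM in some anther group, with Benjamini-Hochberg adjustment over all of them and a threshold of 0.05. Of the 63 members, 45 passed that filter, 25 of them steady, and 14 of the 63 were listed at 0 in all 12 anther libraries. The filter keeps a gene that is high in any 1 group.

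Water deficit against control called 0 of the 45 members in anthers, and among all genes it called 0.00351% higher, which is 1 gene, and 0% lower. In simulated libraries this test recovered 8 of 50 changes of 0.6 on the log2 scale and 19 of 50 changes of 1. The absence of calls therefore does not show that no member changed. At an unadjusted p under 0.05, limma had 4 of the 45 members and 561 of all 28529 genes. The median log2 fold change was 0.22 over the 45 members, 0.28 over the 25 steady members and 0.00 over all genes, and 28 of the 45 were above 0, where 50.4% of all genes were.

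In anthers 5 of the 45 had all 3 water-deficit libraries above all 3 control libraries, where 3.19% of all genes did, and 0 had them below, where 3.38% did. The 5 were GLYMA_17G227000, GLYMA_17G127900, GLYMA_17G101400, GLYMA_14G100000 and GLYMA_13G176000. They were named after their values were seen. GLYMA_17G127900 had 1.34, 2.34 and 0.453 FPKM under water deficit, against 0.239, 0.236 and 0.362 in control, a log2 fold change of 0.81 (SE 0.34) with an adjusted p of 1 by limma. GLYMA_14G100000 had 6.29, 7.86 and 6.50 FPKM, against 5.91, 2.60 and 2.56 in control, a log2 fold change of 0.82 (SE 0.27) with an adjusted p of 1. The groups stood apart, and neither difference passed the threshold.

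Combined stress against heat called 9 of the 45 members higher in anthers and 0 lower, at 25.2% of all genes higher and 8.55% lower. The share of members called higher, 20.0%, was below that of all genes. The median log2 fold change was 0.82 over the members, 1.25 over the steady members and 0.36 over all genes. The members that rose were GLYMA_17G127900, GLYMA_17G101400, GLYMA_16G206200, GLYMA_13G176000, GLYMA_12G149100, GLYMA_09G238300, GLYMA_07G132600, GLYMA_06G021200 and GLYMA_01G132500, all of them steady.

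GLYMA_01G132500 had 4709, 2281 and 3627 FPKM in anthers under combined stress, against 1065, 938 and 615 under heat. The groups did not overlap, and the gene rose by a log2 fold change of 1.99 (SE 0.31, adjusted p = 0.00254 by limma). GLYMA_09G238300 had 2249, 681 and 1028 FPKM under combined stress, against 361, 320 and 135 under heat. It rose by 2.21 (SE 0.58, adjusted p = 0.0166), and its replicates under combined stress differed more from each other than those under heat. GLYMA_06G021200 had 11.5, 6.86 and 11.7 FPKM, against 3.29, 2.19 and 4.84 under heat, and rose by 1.32 (SE 0.28, adjusted p = 0.0078). The adjusted p of GLYMA_09G238300 was 0.0611 without combined-stress replicate 1 and 0.0621 without heat replicate 3.

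The whole anther profile moved with this contrast. Anther-enriched genes took 34.6% ± 5.50 of the summed FPKM in anthers under combined stress and 52.2% ± 3.46 under heat, and 56.5% ± 2.45 under water deficit and 56.6% ± 3.25 in control (SD, n = 3 each). The 691 sepal-enriched genes took 0.229%, 0.108% and 0.169% in anthers under combined stress, against 0.116%, 0.0825% and 0.0822% under heat, which overlap. In such bulk samples fewer cells of a type and less RNA per cell cannot be told apart, and the part of either share in the members' values was not tested. After the libraries were rescaled by median of ratios, which set the median change of all genes to -0.00, 7 of the 45 members (15.6%) were higher in combined stress than in heat, where 2.42% of all genes were, and the members' median was 0.34. On that scale 11.2% of all genes and 0 members were lower. Without the anther-enriched genes and with the libraries rescaled, 7 of 43 members were higher, where 4.31% of all genes were. GLYMA_16G206200, with an adjusted p of 0.222, and GLYMA_13G176000, with 0.513, lost the call after median-of-ratios rescaling.

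**Figure D4:**
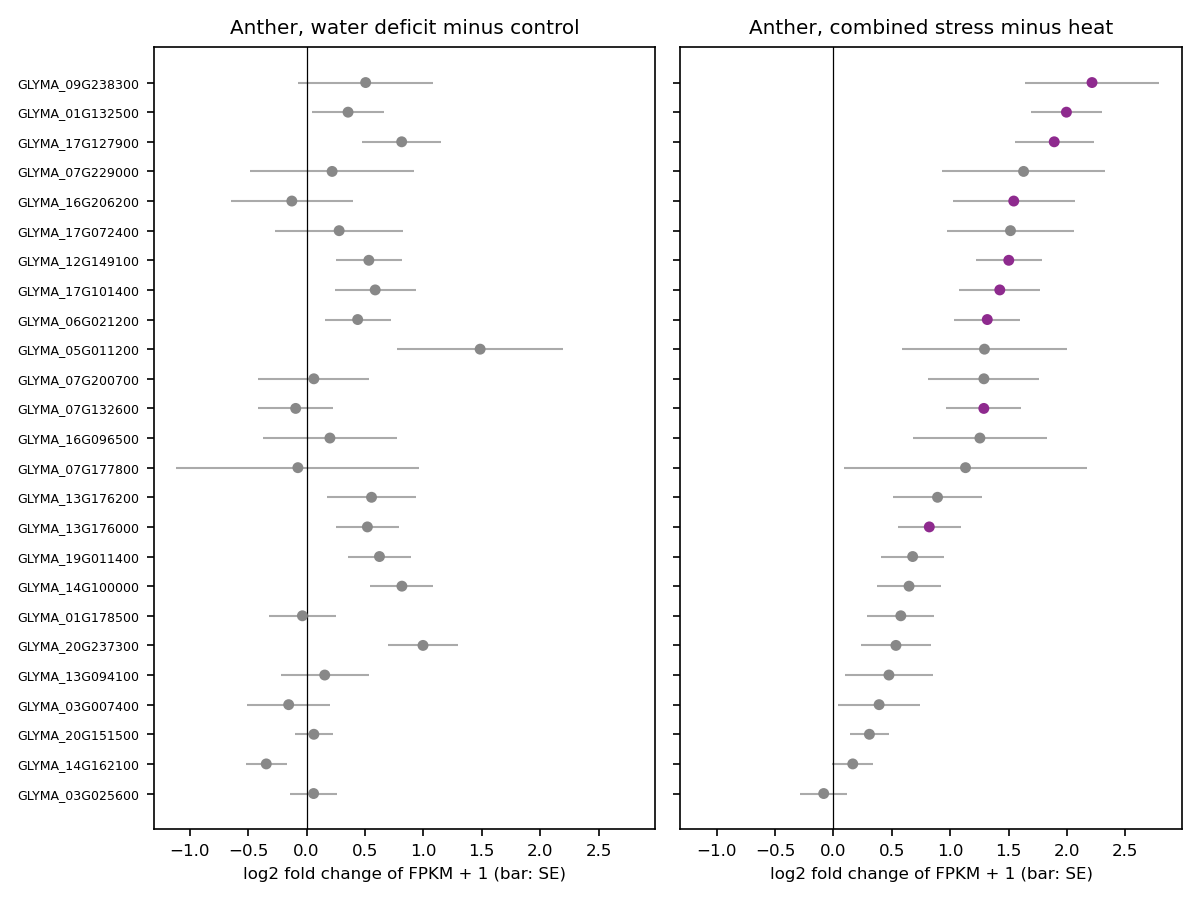
Log2 fold change of FPKM + 1 in anthers for the 25 steady members tested, water deficit minus control (left) and combined stress minus heat (right), with a bar for 1 SE and coloured points for an adjusted p under 0.05 by limma. No point is coloured on the left, and 9 are coloured on the right, from 0.82 to 2.21.

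The count of 9 moved with the libraries. Without combined-stress replicate 2, the anther library with the largest anther-enriched share of its group (40.9%), 13 members were higher and 1 lower, beside 7670 higher and 2489 lower among all genes. Without heat replicate 3 the count was 6, beside 3900 of all genes higher. Without heat replicate 1 it was 7, beside 7831 of all genes. Omitting the other libraries gave 8 to 10 members, beside 2829 to 4293 of all genes. Combined stress against water deficit called 19 of the 45 members higher and 0 lower, at 51.4% and 9.58% of all genes. The 7 heat-raised members had log2 fold changes of 5.09 to 6.64 there, the others of 0.67 to 2.38. GLYMA_17G072400 had 94.1, 109 and 609 FPKM in anthers under combined stress, against 0.929, 1.09 and 0.592 under water deficit, and rose by 6.64 (SE 0.55, adjusted p = 2.02e-05 by limma). Rescaling by median of ratios left 9 of the 45 higher, at 11.3% of all genes higher and 18.1% lower.

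The test of the interaction, the combined-stress minus heat difference minus the water-deficit minus control difference in anthers, called 0 of the 45 members with limma, at 0.109% of all genes higher and 0.172% lower. At an unadjusted p under 0.05 it had 6 members and 8206 of all genes. The median interaction was 0.51 over the members and 0.33 over all genes. Without water-deficit replicate 1 it called 1 member higher, beside 1569 of all genes higher and 813 lower, and without combined-stress replicate 2 it called 2, beside 1127 higher and 1370 lower.

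Heat against control was not part of the rule, although in sepal, ovary and stigma it shares the control and heat libraries with it. The rule's minimum of 5 FPKM could also be met under heat or combined stress alone. Among the steady members GLYMA_16G206200, GLYMA_07G200700, GLYMA_17G127900 and GLYMA_12G149100 met it only there. GLYMA_17G127900 and GLYMA_12G149100 met it under combined stress alone, with ovary means of 8.34 and 7.84 FPKM. For these genes a high level at high temperature was a condition of being chosen. The shares of all genes given here come from the lower filter of 1 FPKM. In sepals limma called 12 of 54 members higher and 1 lower, at 4.11% of all genes higher and 7.19% lower. In ovaries it called 16 of 61 higher and 0 lower, at 5.99% and 10.8%. In stigmas it called 14 of 59 higher and 0 lower, at 6.77% and 7.16%. In anthers, where no library is shared with the rule, it called 10 of 45 higher and 0 lower, at 14.5% and 3.96%. After median-of-ratios rescaling the anther had 8 members higher, at 7.58% of all genes, and 1 lower, GLYMA_07G132600, at 7.04%. The share of members called higher was 22.2% in sepals, 26.2% in ovaries, 23.7% in stigmas and 22.2% in anthers. The sepal count of 13 was 7 without control replicate 2 and 7 without heat replicate 1.

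The 7 heat-raised members had the largest changes, with log2 fold changes of 3.50 to 6.16 over the 4 organs. GLYMA_19G011400 had 117, 148 and 98.1 FPKM in anthers under heat, against 1.30, 0.504 and 0.374 in control, and rose by 6.16 (SE 0.27, adjusted p = 1.31e-06 by limma). In sepals it had 359, 197 and 228 FPKM under heat, against 3.03, 2.76 and 2.98 in control, and rose by 6.02 (SE 0.54, adjusted p = 0.000466). GLYMA_07G200700 had 39.3, 172 and 58.9 FPKM in stigmas under heat, against 0.0630, 0.271 and 0.172 in control, and rose by 6.00 (SE 0.70, adjusted p = 0.00212). The heat libraries stood far above the control libraries in every one of these groups.

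GLYMA_13G176000 and GLYMA_13G176200, the pair with neighbouring identifiers, differed in level and were alike in direction. The first had 59.5, 81.2 and 54.9 FPKM in anthers under heat, against 0.431, 0.148 and 0.470 in control. The second had 294, 337 and 321 FPKM, against 10.6, 5.80 and 7.33 in control. Their log2 fold changes were 5.60 (SE 0.27) and 5.19 (SE 0.38), with adjusted p-values of 1.97e-06 and 2.56e-05 by limma. The sources used here do not say how reads shared by similar copies were counted, so that the levels of neighbouring genes are uncertain.

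Among the other 20 steady members heat called 4 higher and 1 lower in sepals, 9 higher in ovaries, 6 in stigmas and 3 in anthers. GLYMA_05G011200 rose in ovaries (log2 fold change 3.06, SE 0.77, adjusted p = 0.0281 by limma), stigmas (3.49, SE 0.43, adjusted p = 0.00192) and anthers (2.38, SE 0.71, adjusted p = 0.0414). The anther call was kept under 4 of 11 alternatives, and its adjusted p by limma was 0.0532 once anther-enriched genes were removed and libraries rescaled to the rest, and 0.075 with scaling by median of ratios. In sepals it had 5.67, 1.17 and 3.60 FPKM under heat, against 2.60, 1.09 and 3.51 in control, which overlap. GLYMA_06G021200 was the member called lower: it had 58.0, 61.6 and 66.2 FPKM in sepals under heat, against 104, 82.5 and 77.5 in control, and fell by 0.49 on the log2 scale (SE 0.11, adjusted p = 0.0152). The same gene rose in ovaries, with 7.20, 5.64 and 5.80 FPKM under heat, against 2.84, 3.21 and 2.10 in control (log2 fold change 0.96, SE 0.16, adjusted p = 0.00195).

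GLYMA_01G132500, the most abundant member, was called by heat in none of the 4 organs. Its sepal mean was 10276 ± 1253 FPKM under heat and 10251 ± 1071 in control (SD, n = 3 each). In all, 42 of the 63 members were called higher by heat in no organ, 7 in 1 organ, 4 in 2 organs, 3 in 3 organs and 7 in all 4. Only 7 of the 42 were steady, and the rest were intermittent members, often listed at 0. All members called in 1, 3 or 4 organs were steady, and so were 3 of the 4 called in 2. A member not tested in an organ counts as not called there. The 42 therefore do not show an absence of change with heat. The shares of all genes called in each single organ are given above. Calls by number of organs were not counted over all genes, so the 7 cannot be set against a background.

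**Figure D5:**
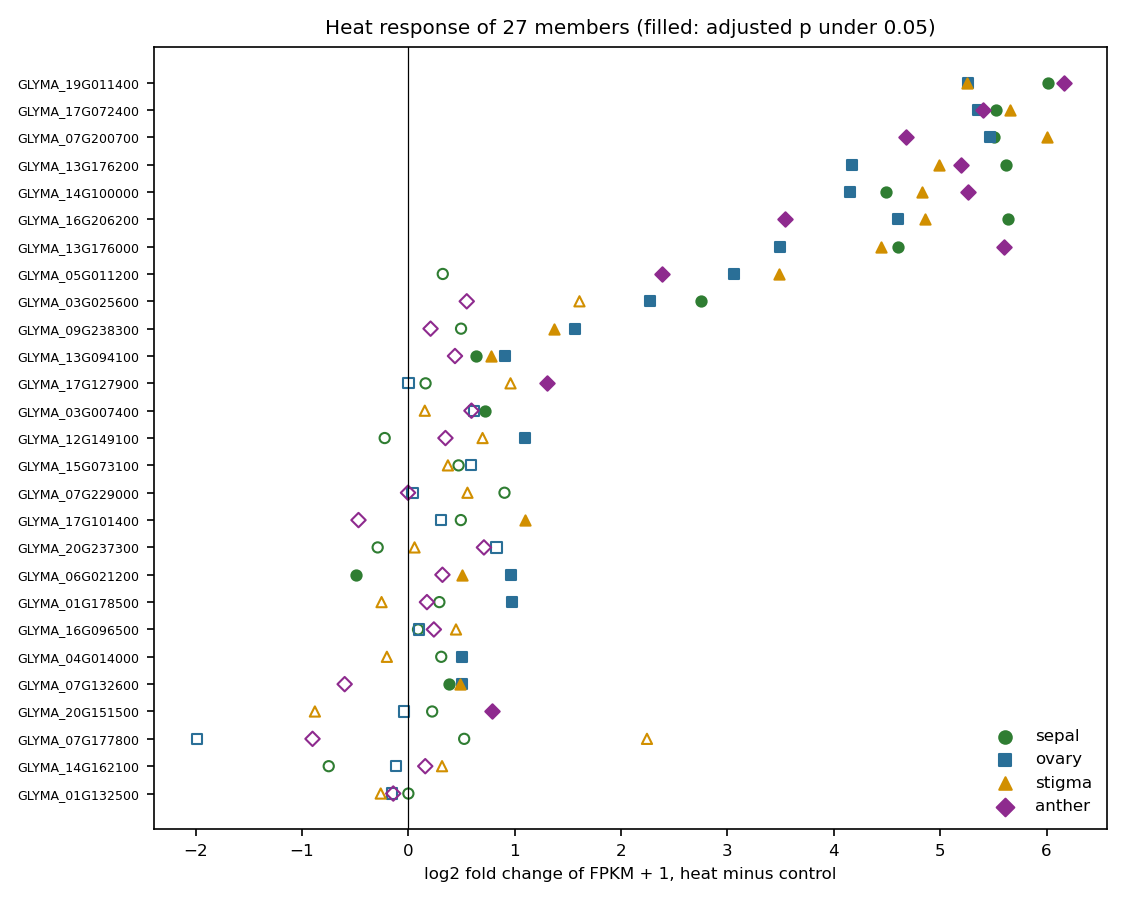
Log2 fold change of FPKM + 1, heat minus control, for the 27 steady members in sepal, ovary, stigma and anther, with filled symbols for an adjusted p under 0.05 by limma. The 7 genes at the top lie between 3.50 and 6.16 in every organ, and most of the others lie within 1 of zero.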

How the data were processed

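Expression was measured by RNA sequencing (paired reads of 150 bases) in 48 libraries. The deposited values are FPKM per gene. HISAT2 2.2.1 was used, per the submitters' processing notes; the counting tool, genome build, annotation and treatment of strand and shared reads remain not given in the sources used here. Read totals are not known, so no count model or counting interval was used, and precision rests on the 3 libraries of a group.

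Members were found from group means as described. The members and lists were chosen with earlier results of these data known. Where a contrast was not used by the rule, log2(FPKM + 1) was fitted per organ over 12 libraries with limma 3.58.1 in R 4.3.3 (mean-variance trend, robust, two-sided), for genes with a mean of 1 FPKM in some group, with Benjamini-Hochberg adjustment. The procedure was tested on simulated anther libraries for water deficit against control. It recovered 8 of 50 genes changed by 0.6 on the log2 scale and 19 of 50 changed by 1. For changes of 2 it recovered 47 of 50, and for changes of 3 it recovered 46 of 50. Replicates are labelled as biological repeats of pooled plants. The highest correlation between libraries was 0.983, and none was a copy of another.

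Genes were named by rank: the 8 largest smaller averages, the top 2 per organ by the smaller of their values there, the 3 most abundant, the 2 on either side of the threshold, the 2 most changed called members per contrast and direction, and the 2 widest gaps in each direction; other names are marked as chosen after their values were seen. Lists of pathway genes were not used here, because no identifier could be paired with a name. Alternatives were a pseudocount of 0.1 FPKM, no filter, median-of-ratios rescaling, a replicate block, a fit without trend or robust moderation, removal of anther-enriched genes, omission of each library, and other forms of the membership rule. Figures were drawn with matplotlib 3.10.9.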

Additional observations from a re-analysis of the deposited data

Results flagged for a closer look

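In 3 steady members every library of a group moved one way in 1 organ and the opposite way in another under the same contrast. These differences between organs were not tested, and opposite pairs were not counted over all genes. Heat against control separated 11.4% of all genes upward and 19.5% downward in sepals, and 16.1% and 20.2% in ovaries. In stigmas it separated 18.3% and 16.9%, and in anthers 29.0% and 9.43%. Of heat against control, GLYMA_20G151500 had a log2 difference of 0.79 in anthers, 0.51 with an adjusted p of 0.114 by limma after median-of-ratios rescaling, and -0.88 in stigmas. GLYMA_06G021200 had 0.96 in ovaries, 0.50 in stigmas and -0.49 in sepals. GLYMA_07G132600 had 0.39 in sepals, 0.50 in ovaries, 0.48 in stigmas and -0.60 in anthers. In the main fit limma called neither the stigma value of GLYMA_20G151500 nor the anther value of GLYMA_07G132600.

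Of combined stress against water deficit, GLYMA_20G151500 had 1.04 in anthers and -0.39 in ovaries. GLYMA_06G021200 had 0.84 in ovaries, 0.86 in stigmas, 1.20 in anthers and -0.46 in sepals. Limma tested this contrast in anthers only. It separated 55.7% of all genes upward in anthers, and 22.6% downward in ovaries and 24.0% in sepals. After the same rescaling the anther values were 0.29 (adjusted p = 0.32 by limma) for GLYMA_20G151500 and 0.54 (adjusted p = 0.088) for GLYMA_06G021200. The unscaled anther values stand beside the change in the share of anther-enriched genes given above, whose part in them was not tested.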

How the results depend on the processing

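The number of members, 63, became 4 when each organ had to reach 0.6 and 27 when a gene could be listed at 0 in at most 3 of 36 libraries, an alternative chosen after seeing the data; leaving out a replicate of every group gave 63 to 84. Of 45 members, 9 (20%) were called for combined stress against water deficit in anthers after median-of-ratios rescaling, where 11.3% of all genes were higher. With anther-enriched genes removed and the sums of the rest equalised, 12 of 43 (27.9%) were called, where 24.5% of all genes were higher. The main fit had 19 of 45, at 51.4% of all genes. The cause of these shifts was not tested. Leaving out each library in turn gave 14 to 24 for that contrast, 6 to 14 for combined stress against heat, 8 to 10 for heat against control, 0 for water deficit against control and 0 to 2 for the interaction, all in anthers, and 7 to 12 in sepals, 11 to 13 in ovaries and 10 to 12 in stigmas for heat against control. The counts over all genes moved with the omitted library too, as given above for combined stress against heat. With the replicate number as a block, 9 members were called for that contrast in anthers, beside 5943 of all genes higher. They held 8 of the 9 named above, and GLYMA_13G176000 had an adjusted p of 0.0521 by limma. Heat against control called 10 in anthers, beside 3414 of all genes higher, and water deficit against control called 0. For heat against control there were 10 in sepals in place of 13, 15 in ovaries in place of 16 and 13 in stigmas in place of 14. The 3 sepal calls lost were GLYMA_07G132600, GLYMA_03G025600 and GLYMA_03G007400. Deviations of same-numbered libraries had correlations of -0.20 to 0.28, which cannot show whether the numbers paired the samples. The main fits treated the libraries as unpaired. Of all 81 calls of members under alternatives (890 values), 738 were kept, 152 were not and 0 reversed; in anthers GLYMA_16G206200 and GLYMA_13G176000 kept the call for combined stress against heat in 4 and 2 of 11. Of 143 values of the genes named for the size of their change, 140 kept their direction and side of the threshold, 3 lost the call and 0 reversed; the 3 were GLYMA_09G238300 in anthers, described above, and GLYMA_06G021200 in sepals under heat, with an adjusted p of 0.0562 by limma without heat replicate 1. Unknown depth and 3 libraries a group limit what could be seen for members near 1 FPKM. In the simulation, changes of 0.6 and 1 on the log2 scale were mostly missed at higher levels too.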

Other observations

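GLYMA_03G040400, an intermittent member singled out after its values were seen, had 28.6, 23.5 and 19.2 FPKM in sepals under combined stress and 6.20, 30.9 and 32.2 under heat, and it had 0.701, 0.650 and 0 FPKM under water deficit and 0.0402, 0 and 0 in control. Heat against control raised it there (log2 fold change 4.28, SE 0.50, adjusted p = 0.000995 by limma). In stigmas it had 59.3, 39.1 and 55.3 FPKM under combined stress, against 10.9, 9.94 and 25.1 under heat, and 10.9, 4.48 and 28.2 FPKM under water deficit, against 3.97, 2.46 and 1.90 in control. In ovaries no library exceeded 1.06 FPKM.

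GLYMA_13G050100 is an anther-enriched gene among the members, singled out after its values were seen. It had 30.6, 8.88 and 8.90 FPKM in stigmas under water deficit, against 0, 0 and 7.39 in control, while anther levels were 124, 179 and 61.6 FPKM under water deficit and 115, 187 and 103 in control. Anther-enriched genes took 3.42% ± 0.578 of the summed FPKM in stigmas under water deficit and 2.89% ± 1.51 in control (SD, n = 3 each), and their part in its stigma values was not tested.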
